A study of Homo sapiens with 12 samples.

Results

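The ZNF genes described here are zinc finger genes whose symbol is ZNF followed by a number and whose probe was detected on every one of the 12 arrays at a detection p-value under 0.01. That rule found 256 genes of the 17259 genes tested. The arrays carried 749 probes for 526 ZNF symbols. Of these symbols, 385 were tested, so 129 tested ZNF genes lay outside the rule and 141 were not tested. The members were selected on their detection p-values, which are not used below as a result. Where a gene had several probes that met the rule, the brightest represented it.

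Gene expression was measured on bead arrays in LNCaP cells, an established line of androgen-responsive prostate cancer cells, so all values come from 1 line. Cells in steroid-deprived medium with 2% serum received an siRNA that targets the nuclear receptor ERRγ (estrogen-related receptor gamma) or a control siRNA. From 48 h after transfection they were treated for 72 h with 10 nM R1881, a synthetic androgen, or with the ethanol vehicle. The 4 groups of 3 arrays were ERRγ siRNA with R1881, ERRγ siRNA with vehicle, control siRNA with R1881 and control siRNA with vehicle. The labels speak only of triplicate samples, so p-values here reflect the spread of those samples alone, and that spread may be technical.

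Each array detected 18695 to 20533 of 47323 probes at a detection p-value under 0.05, and arrays of 1 group correlated at 0.990 to 0.995. The RNA targeted by the siRNA was not seen: none of the 3 probes for ESRRG, the gene of ERRγ, was detected on any array, the lowest detection p-value being 0.0623, so the depletion could not be checked here. The androgen-induced genes KLK3 and FKBP5 checked the R1881 labels. KLK3 was higher with R1881 by 5.20 (log2) with the ERRγ siRNA and by 5.48 with the control siRNA, and FKBP5 by 3.82 and 4.08 in the same order. Of 10 markers of luminal prostate cells, 9 were detected on all 12 arrays and KLK2 on 6. Of 11 markers of basal, stromal and immune cells, COL1A1 alone was detected on all 12 arrays, at raw signals of 107 to 130, and the others on 0 to 4. Of the neuroendocrine markers ENO2 was detected on all 12 arrays, and CHGA, SYP and NCAM1 on 0 or 1.

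Most ZNF genes encode proteins with rows of C2H2 zinc fingers, short loops that each hold a zinc ion and read a few bases of DNA. Many also carry a KRAB domain, which recruits the corepressor TRIM28 (KAP1) and with it the histone methyltransferase SETDB1, and these KRAB proteins are best known for silencing transposable elements. They form the largest family of human transcription factors and many lie in clusters on chromosome 19. Other genes carry a ZNF symbol for historical reasons and work in ribosome assembly, ubiquitin transfer or the mitotic spindle.

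Each member was placed in the RefSeq promoter table (GRCh38.p14, 250 bases before to 50 bases after the gene start) where it had an entry, which 217 members did. These starts were rich in CG. The median promoter of 216 distinct entries held 62.3% G and C with an observed-over-expected CpG ratio of 0.816, beside 65.7% and 0.858 for 7164 other genes detected on all 12 arrays, and 58.3% and 0.580 for all 27305 promoters of the table. The promoters of ZNF467, the member with the largest fall under R1881 with the ERRγ siRNA, and of ZNF18, the member with the largest rise there, are printed below with each CG in capitals, as examples of a member that fell and one that rose. ZNF467 lies at chr7:149773539-149773838 and ZNF18 at chr17:11997426-11997725, both on the minus strand. Each held 33 CG pairs in 300 bases, with 75% and 67.7% G and C in the order named.
ZNF467: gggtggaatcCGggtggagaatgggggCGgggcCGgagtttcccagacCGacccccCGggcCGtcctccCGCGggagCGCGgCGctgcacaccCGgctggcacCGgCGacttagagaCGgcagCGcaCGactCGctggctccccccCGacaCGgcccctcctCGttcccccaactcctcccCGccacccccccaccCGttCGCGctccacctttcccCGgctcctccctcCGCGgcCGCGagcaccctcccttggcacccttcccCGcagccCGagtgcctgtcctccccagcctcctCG
ZNF18: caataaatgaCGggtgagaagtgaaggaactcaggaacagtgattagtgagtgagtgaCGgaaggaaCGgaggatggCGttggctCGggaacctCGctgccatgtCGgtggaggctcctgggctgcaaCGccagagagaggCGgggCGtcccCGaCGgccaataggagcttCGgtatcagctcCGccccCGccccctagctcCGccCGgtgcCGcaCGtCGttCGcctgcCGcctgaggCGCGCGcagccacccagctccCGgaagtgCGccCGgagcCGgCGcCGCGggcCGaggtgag

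The promoters were searched on both strands for the ERR response element, TNAAGGTCA, and for the androgen response element, made of GNACA and TGTNC with 3 free bases between them; the 2 matches found lay in different promoters. Of the 216 member promoters 1 held each motif, a share of 0.463%, beside 0.963% of all 27305 promoters for the ERR element and 0.388% for the androgen element. The ERR element lay in ZNF320 (chr19:52897651-52897675, minus strand) and the androgen element in ZNF532 (chr18:58862692-58862720, plus strand). These windows are printed with the matched letters in capitals. A match is a description of letters and not of a bound site.
ZNF320: gcagggacTGAAGGTCAcaccacag
ZNF532: tgctgtatGTACAATATGTGCttgttaca
ZNF320 is a member called lower with R1881 in the control siRNA arrays, with a log2 change of -0.34 ± 0.10 (SE, adjusted p = 0.0114). With the ERRγ siRNA its change was -0.24 ± 0.10 (adjusted p = 0.0598), which was not called. A second detected probe of ZNF320 had the opposite sign, at 0.18 with the ERRγ siRNA and 0.12 with the control siRNA, called in neither. ZNF532, a subunit of a zinc finger complex with ZMYND8, was called in neither comparison, at 0.14 with the ERRγ siRNA and -0.05 with the control siRNA.

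The members were dim transcripts on the whole. Their mean raw signal over the 12 arrays ran from 112 to 6924, with a median of 178, beside a median of 269 for the 10590 other genes detected on all 12 arrays. A raw signal under 150 was seen for 86 members, 150 to 300 for 123 and over 300 for 47. The brightest probe was that of ZNF674, an X-linked KRAB gene, at a mean of 6924, followed by ZNF430 at 1933, ZNF549 at 1633, ZNF428 at 1624, ZNF14 at 1292 and ZNF358 at 1246. Signals of different probes are not levels that can be ranked between genes, since each probe has its own affinity. At the threshold of the rule, ZNF717, ZNF701, ZNF438 and ZNF283 were just inside with a highest detection p-value of 0.00909. ZNF268 and ZNF525 (0.0104), ZNF670 (0.0117) and ZNF276 (0.0130) were just outside.

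R1881 was followed by lower signals for many members with either siRNA, and by higher signals for few. A member was called when its adjusted p was under 0.05 in limma's moderated test, with Benjamini-Hochberg adjustment over all 17259 genes. With the ERRγ siRNA, 104 of 256 members were lower, 18 were higher and 134 were not called, where 20.3% of all tested genes were called lower and 16.7% higher. With the control siRNA, 109 members were lower, 22 were higher and 125 were not called, where 22.2% of all tested genes were lower and 17.8% higher. The members' shares were thus 40.6% lower and 7.03% higher with the ERRγ siRNA, and 42.6% lower and 8.59% higher with the control siRNA. A second detected probe existed for 38 members, and among these 39 further probes 11 were lower and 5 higher with the ERRγ siRNA, and 7 were lower and 8 higher with the control siRNA. Total RNA was measured from whole cultures, so fewer cells expressing a gene and less RNA of it per cell cannot be told apart.

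Because the rule asks for detection on every array, the members were also set beside the 10590 other genes detected on all 12 arrays. Of these, 25.3% were lower and 22.2% higher with the ERRγ siRNA, and 27.3% were lower and 23.6% higher with the control siRNA. The total share called was alike, at 47.7% of members and 47.4% of the other genes with the ERRγ siRNA and at 51.2% and 50.9% with the control siRNA. The median log2 change of the members was -0.20 with the ERRγ siRNA and -0.23 with the control siRNA, where that of all tested genes was -0.02 and -0.03 in the same order. No test was made of the list as a whole, since members of 1 family on the same arrays are not replicates.

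**Figure D1:**
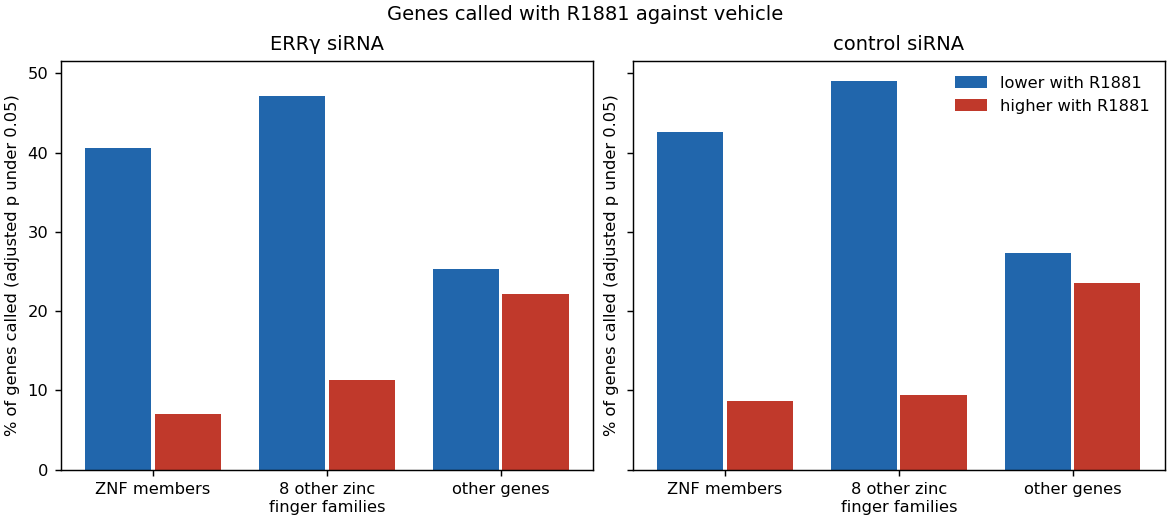
Share of genes called lower (blue) and higher (red) with R1881 against vehicle, in percent, for the 256 ZNF members, for 53 genes of 8 other zinc finger families (grouped by symbol) and for 10590 other genes, all detected on all 12 arrays. The members had 40.6% lower and 7.03% higher with the ERRγ siRNA (left panel), and 42.6% and 8.59% with the control siRNA (right panel).

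The changes were moderate. A fall of at least 1.5-fold was called for 35 members with the ERRγ siRNA where 8.91% of all tested genes were called, and for 41 with the control siRNA, where 9.95% were. A rise of that size was called for 6 members with the ERRγ siRNA, where 7.74% of all tested genes were called, and for 5 with the control siRNA, where 7.95% were. The log2 changes of all members ran from -1.49 to 0.99 with the ERRγ siRNA and from -1.48 to 1.16 with the control siRNA. All 3 R1881 arrays lay below all 3 vehicle arrays for 121 members with the ERRγ siRNA and 123 with the control siRNA, where 26.7% and 25.8% of all tested genes did so. They lay above for 26 and 28 members, where 22.5% and 21.3% of all tested genes did so.

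**Figure D2:**
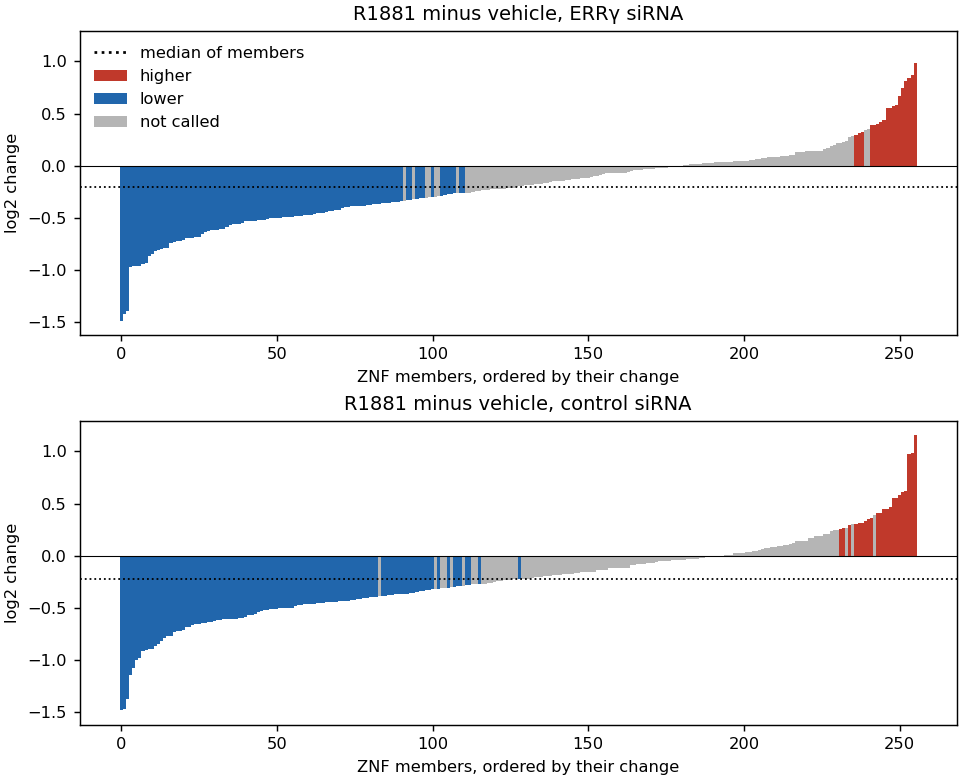
Log2 change with R1881 against vehicle for each of the 256 members, ordered by size within each panel, with the ERRγ siRNA above and the control siRNA below. Blue bars are called lower, red bars called higher, grey bars not called, and the dotted line is the members' median (-0.20 and -0.23).

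ZNF467, whose mouse counterpart takes part in the choice of marrow stromal cells between bone and fat, had the largest fall with the ERRγ siRNA. Its normalised log2 signals with the ERRγ siRNA were 7.57, 7.48 and 7.61 in R1881, against 9.06, 9.11 and 8.95 in vehicle. Under the control siRNA they were 7.85, 7.66 and 7.75 in R1881, against 9.11, 9.25 and 9.29 in vehicle. Every R1881 array lay more than 1 log2 unit below every vehicle array of the same siRNA. The log2 change was -1.49 ± 0.09 (SE, adjusted p = 1.43e-08) with the ERRγ siRNA and -1.46 ± 0.09 (adjusted p = 1.71e-08) with the control siRNA, a 2.80-fold and a 2.76-fold fall.

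ZNF84, a KRAB zinc finger gene on chromosome 12, behaved alike. With the ERRγ siRNA it had log2 signals of 5.37, 5.63 and 5.41 in R1881, against 6.996, 6.89 and 6.77 in vehicle. The values with the control siRNA were 5.58, 5.64 and 5.45 in R1881, against 6.93, 6.91 and 6.92 in vehicle. The groups did not overlap, and the log2 changes were -1.42 ± 0.10 (adjusted p = 5.42e-08) and -1.37 ± 0.10 (adjusted p = 7.47e-08). The size of such a change depended on the processing, and the reason was not tested. On the authors' deposited normalized values ZNF84 fell by 0.40 with the ERRγ siRNA and by 0.39 with the control siRNA, and ZNF467 fell by 0.96 with the ERRγ siRNA. Both genes were called with each siRNA on those values.

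ZNF462, a chromatin-associated protein needed in development, had 5.98, 5.94 and 5.91 in R1881, against 7.52, 7.25 and 7.23 in vehicle with the ERRγ siRNA. It had, with the control siRNA, 6.08, 6.02 and 5.98 in R1881, against 7.56, 7.44 and 7.51 in vehicle. This was the largest fall of any member with the control siRNA, at -1.48 ± 0.09 (adjusted p = 2.02e-08), and it was -1.39 ± 0.09 (adjusted p = 3.93e-08) with the ERRγ siRNA. ZNF219, a partner of SOX9 in cartilage formation, had 5.75, 5.45 and 5.88 in R1881, against 6.33, 6.47 and 6.34 in vehicle with the ERRγ siRNA, and 5.47, 5.56 and 5.66 in R1881, against 6.80, 6.55 and 6.77 in vehicle with the control siRNA. Its change was -0.69 ± 0.12 with the ERRγ siRNA and -1.14 ± 0.12 with the control siRNA, and the difference of the changes, 0.45 ± 0.16, was not called (adjusted p = 0.345).

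ZNF503 (NOLZ1), a developmental corepressor, fell by 0.97 with the ERRγ siRNA and by 0.82 with the control siRNA. ZNF10 (KOX1), whose KRAB domain is the one commonly fused to dCas9 to silence genes, fell by 0.93 and 0.79 in the same order. ZNF91, which silences SVA retrotransposons, fell by 0.68 and 0.52. Its log2 signals were 7.44, 7.50 and 7.73 in R1881, against 8.15, 8.35 and 8.22 in vehicle with the ERRγ siRNA, and 7.55, 7.63 and 7.76 in R1881, against 8.21, 8.20 and 8.09 in vehicle with the control siRNA, with no overlap in either pair. ZNF318, a nuclear protein that in B cells sets the splice choice between IgM and IgD, fell by 0.35 (adjusted p = 0.0331) and by 0.65 (adjusted p = 6.04e-04). A second detected probe of ZNF318 was called in neither comparison, at 0.05 with the ERRγ siRNA and -0.25 with the control siRNA.

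Further falls with both siRNAs, given as ERRγ siRNA then control siRNA, were seen for ZNF319 (-0.84 and -1.08), ZNF775 (-0.72 and -0.996) and ZNF581 (-0.96 and -0.90). ZNF827, which recruits the NuRD complex to telomeres, fell by 0.71 and 0.97. The KRAB genes ZNF25 (-0.96 and -0.77), ZNF177 (-0.96 and -0.89), ZNF627 (-0.94 and -0.85) and ZNF337 (-0.56 and -0.90) were called in both comparisons too. ZNF260 (-0.69 and -0.91), ZNF277 (-0.86 and -0.68), ZNF34 (-0.53 and -0.86) and ZNF618 (-0.82 and -0.51), the last a binding partner of UHRF2, complete the members with the largest falls. In all of them the 3 R1881 values lay below the 3 vehicle values with each siRNA.

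Few members rose. ZNF18, which has both a SCAN and a KRAB domain, had log2 signals of 8.10, 7.97 and 8.05 in R1881, against 6.94, 7.03 and 7.19 in vehicle with the ERRγ siRNA. In the control siRNA arrays it had 7.90, 8.07 and 8.11 in R1881, against 7.08, 7.08 and 6.997 in vehicle. Its rise was 0.99 ± 0.09 (adjusted p = 1.49e-06) with the ERRγ siRNA and 0.98 ± 0.09 (adjusted p = 1.57e-06) with the control siRNA, and the R1881 and vehicle arrays did not overlap.

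ZNF385B was measured by 2 member probes, because the symbol ZNF533 is an older name of the same gene. The probe named ZNF385B had 7.71, 7.91 and 7.95 in R1881, against 6.92, 7.06 and 7.07 in vehicle with the ERRγ siRNA, and 7.61, 7.85 and 7.76 in R1881, against 6.64, 6.51 and 6.60 in vehicle with the control siRNA. Its rise was 0.84 ± 0.10 with the ERRγ siRNA and 1.16 ± 0.10 with the control siRNA, and the probe named ZNF533 rose by 0.67 and 0.99 in the same order. The 2 probes are thus 1 gene counted under 2 symbols in every count above.

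ZNF589, a KRAB gene first described in blood stem cells, had 6.03, 6.15 and 6.09 in R1881, against 5.25, 5.21 and 5.19 in vehicle with the ERRγ siRNA, a rise of 0.87 ± 0.11. With the control siRNA it had 5.84, 5.80 and 5.78 in R1881, against 5.46, 5.28 and 4.95 in vehicle, a rise of 0.58 ± 0.11. The KRAB gene ZNF226 rose by 0.81 and 0.61, ZNF470 by 0.55 and 0.62, and ZNF511 by 0.57 and 0.46, with the ERRγ siRNA given first. ZNF650, today UBR3, a ubiquitin ligase, rose by 0.55 with each siRNA, and ZNF259, today ZPR1, a binding partner of elongation factor eEF1A, by 0.31 and 0.56. ZNF239 rose by 0.39 and 0.41.

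**Figure D3:**
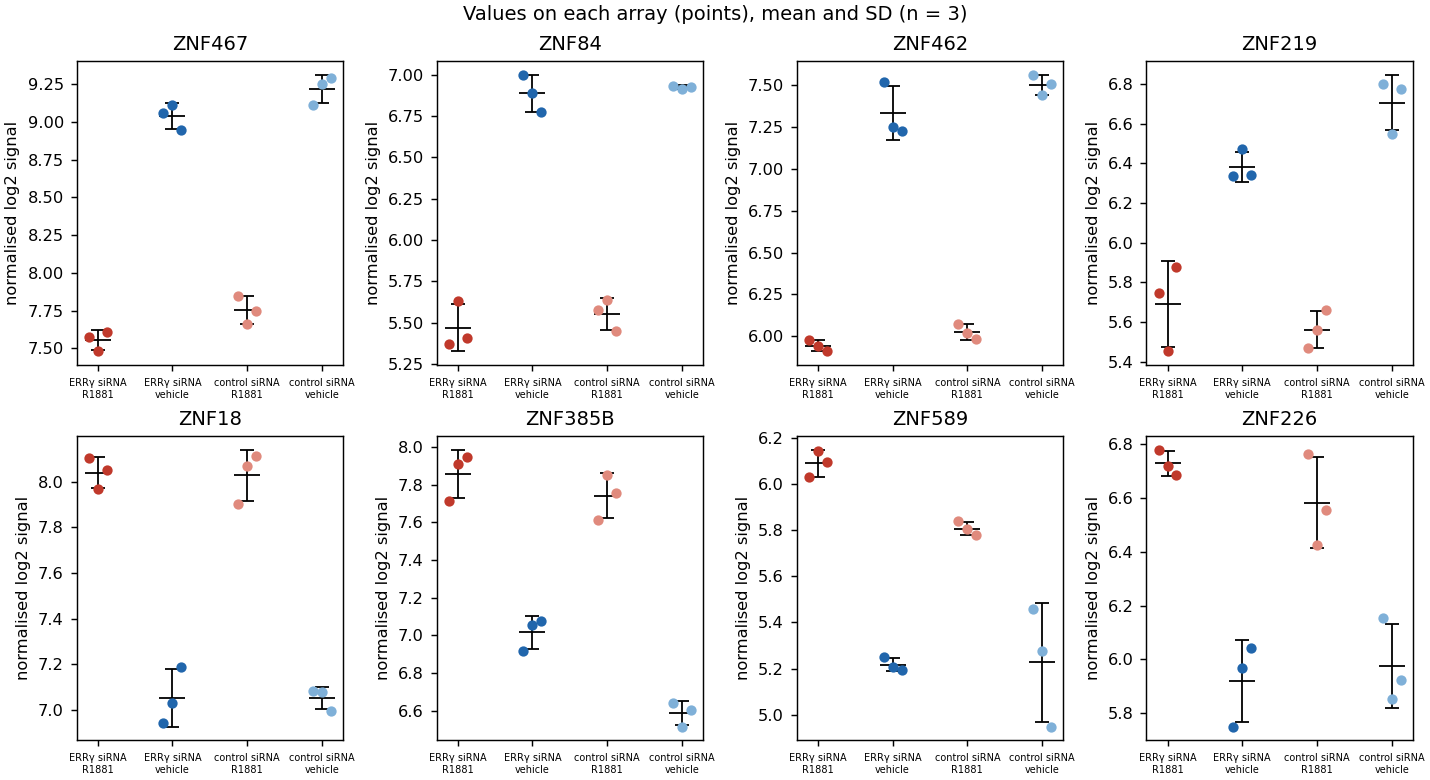
Normalised log2 signal of 8 members on each of the 12 arrays (points), with the mean and SD of each group of 3 (black), R1881 left of vehicle for each siRNA. ZNF467, ZNF84, ZNF462 and ZNF219 (top) lay lower in R1881 than in vehicle, and ZNF18, ZNF385B, ZNF589 and ZNF226 (bottom) lay higher, with no overlap between R1881 and vehicle.

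Members with well-studied roles did not move as a block. ZNF143, an activator of many promoters and of small nuclear RNA genes, rose by 0.30 (adjusted p = 0.00868) with the ERRγ siRNA and by 0.26 (adjusted p = 0.0165) with the control siRNA. ZNF217, a repressor amplified in several cancers, had 9.14, 9.14 and 9.03 in R1881, against 8.93, 8.61 and 8.90 in vehicle with the ERRγ siRNA, and 8.71, 9.14 and 8.89 in R1881, against 8.54, 8.47 and 8.40 in vehicle with the control siRNA. The R1881 arrays were higher in each pair, but the call was made with the control siRNA (0.44 ± 0.12, adjusted p = 0.00783) and not with the ERRγ siRNA (0.29 ± 0.12, adjusted p = 0.0698).

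Of the members that act on ribosomes, ZNF598, the ubiquitin ligase of collided ribosomes, rose by 0.33 with the control siRNA (adjusted p = 0.0275) and stood at 0.04 ± 0.11 with the ERRγ siRNA. A second detected probe of ZNF598 rose by 0.37 with the ERRγ siRNA (adjusted p = 0.0266, limma over all kept probes). With the control siRNA that probe stood at 0.32 and was not called (adjusted p = 0.0504). ZNF593, an assembly factor of the large subunit, rose by 0.58 with the ERRγ siRNA (adjusted p = 0.0197), where it had 8.25, 8.24 and 8.21 in R1881, against 7.53, 7.90 and 7.54 in vehicle. With the control siRNA its 3 R1881 values, 8.67, 7.76 and 8.12, spanned its vehicle values of 8.07, 8.32 and 8.26. ZNF622, another large-subunit factor, was called in neither, at 0.08 and 0.19.

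ZNF395 was lower with the ERRγ siRNA (-0.47 ± 0.14, adjusted p = 0.0153) and not called with the control siRNA (-0.27 ± 0.14). ZNF706 fell with both, by 0.52 and 0.36. ZNF207 (BuGZ), a spindle assembly protein, was not called at -0.12 ± 0.09 and -0.05 ± 0.09, nor was ZNF281, a regulator of epithelial to mesenchymal transition, at -0.21 ± 0.10 and -0.17 ± 0.10. A second detected probe of ZNF207 fell by 0.30 with the ERRγ siRNA (adjusted p = 0.00933, limma over all kept probes). With the control siRNA that probe stood at -0.20 and was not called. The members with the smallest change averaged over the siRNAs were ZNF384, ZNF256, ZNF76, ZNF419 and ZNF283, all within 0.04 of 0. For ZNF419, where the spread was small, the 95% interval of the change ran from -0.14 to 0.21 with the ERRγ siRNA and from -0.16 to 0.19 with the control siRNA.

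The R1881 responses with the siRNAs were measured on separate arrays. Of the 256 members, 81 were called lower with both siRNAs, 15 higher with both, 99 with neither, and 0 in opposite directions. Calls made with 1 siRNA alone were 23 lower and 3 higher with the ERRγ siRNA, and 28 lower and 7 higher with the control siRNA. These counts were made for the members alone, without the share of all tested genes, so they show nothing particular to the members. Across members the log2 changes correlated at a Pearson r of 0.836, which describes 256 genes on the same arrays and is given without a p. A call with 1 siRNA and not with the other is not a difference between them. The difference itself, tested as the interaction, was called for 0 members by limma, with a lowest adjusted p of 0.228. Of all tested genes 0% were called in the interaction. An unadjusted p under 0.05 was seen for 29 members (20 higher and 9 lower with the ERRγ siRNA). That is 11.3% of members, beside 11% of all tested genes. Leaving out replicate 1 of the control siRNA with R1881 called 2 members higher, ZNF329 (0.80, adjusted p = 0.0452) and ZNF682 (0.94, adjusted p = 0.0216), and a background offset of 50 called ZNF394 (0.49) and ZNF682 (0.75), both at an adjusted p of 0.0492. The share of all tested genes called in the interaction under these changes was not counted. The 95% interval of a member's difference, which is not adjusted over genes, reached a median of 0.325 to each side. This is not a limit of detection for the adjusted call, since the largest difference, 0.80, was not called in the main fit either.

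**Figure D4:**
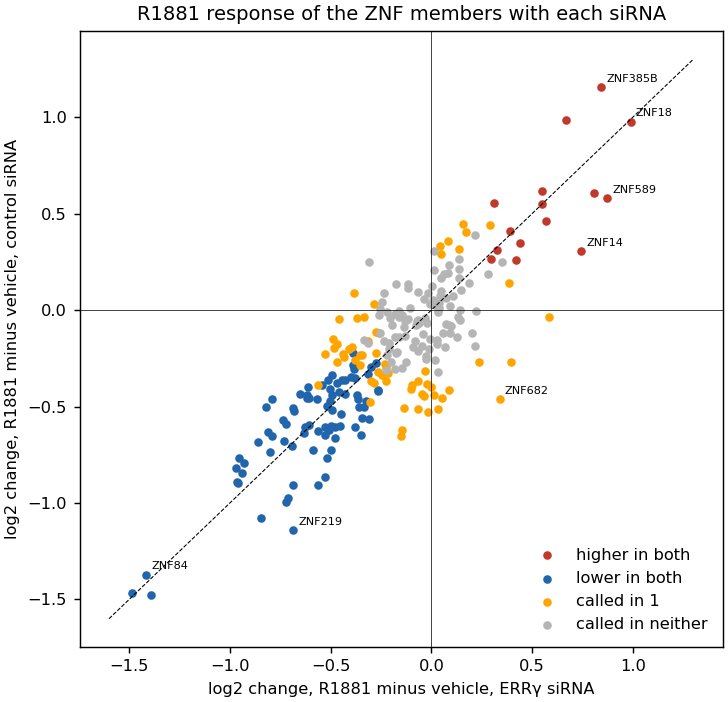
Log2 change with R1881 against vehicle for each of the 256 members, with the ERRγ siRNA on the horizontal axis and the control siRNA on the vertical axis, and the dashed line marks equal changes. Blue points were called lower with both (81), red points higher with both (15), orange points with 1 siRNA and grey points with neither (99).

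ZNF682 had the lowest p in the interaction and the largest difference. It had 9.16, 8.84 and 9.18 in R1881, against 8.71, 8.76 and 8.68 in vehicle with the ERRγ siRNA, and 9.11, 8.76 and 8.63 in R1881, against 9.37, 9.14 and 9.38 in vehicle with the control siRNA. The arrays with R1881 lay above vehicle with the ERRγ siRNA and below it with the control siRNA, and the difference of 0.80 ± 0.18 was not called (adjusted p = 0.228). ZNF394 (0.51 ± 0.12, adjusted p = 0.245) and ZNF329 (0.66 ± 0.18, adjusted p = 0.264) came next and were not called either. Second probes of ZNF682 and ZNF394 went the opposite way with R1881 in the control siRNA arrays.

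The ERRγ siRNA against the control siRNA gave 0 called members in vehicle and 0 in R1881 in limma's test. In vehicle the lowest adjusted p of a member was 0.0895, where 0.267% of all tested genes were called. An unadjusted p under 0.05 was seen there for 49 members, 21 higher and 28 lower. That is 19.1% of members, beside 15.4% of all tested genes and 19.4% of the other genes detected on all 12 arrays. In R1881 the lowest adjusted p of a member was 0.590, where 0% of all tested genes were called. There 14 members, or 5.47%, had an unadjusted p under 0.05, beside 6.17% of all tested genes. The vehicle comparison shares its control siRNA vehicle arrays with the R1881 comparison of the control siRNA. ZNF430, a KRAB gene, had 10.78, 10.68 and 10.71 with the ERRγ siRNA, against 11.24, 11.09 and 11.31 with the control siRNA, a difference of -0.49 ± 0.11 (adjusted p = 0.0895). ZNF394 differed by -0.39 ± 0.09 and ZNF385B by 0.43 ± 0.10, both at an adjusted p of 0.0895. In these 3 the groups did not overlap, as in 11.5% (above) and 10.7% (below) of all tested genes. A second detected probe of ZNF394 had the opposite sign in vehicle, at 0.17, and was not called (adjusted p = 0.509, limma over all kept probes).

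This count of 0 in vehicle was close to the threshold and depended on the processing. Alternatives called 0 to 10 members lower and 0 or 1 higher, ZNF385B being the one that was called higher. The share of all tested genes called under each alternative was not counted, so these calls show no excess among members. Leaving out 1 array of the control siRNA with R1881, which is in neither group of that comparison, gave 4 lower and 1 higher without replicate 1, and 3 lower without replicate 2. In R1881 the members with the lowest p were ZNF618 (-0.47 ± 0.11), ZNF296 (-0.38 ± 0.10) and ZNF337 (0.28 ± 0.09), none of them called. A median half-width of the 95% interval of 0.230 limits what such a comparison could show.

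For 38 members a further probe met the detection rule, which gave 39 second probes in all, and these give a second reading of the R1881 change. The second probes were dimmer, at a median raw signal of 137 beside 209 for the member probes of those genes. With the ERRγ siRNA 11 of the 39 were called lower and 5 higher, where the member probes of the 38 genes had 11 lower and 4 higher. The median log2 change there was -0.04 for the second probes and -0.06 for the member probes. With the control siRNA 7 of the 39 were called lower and 8 higher, where the member probes had 16 lower and 5 higher, and the median change was -0.06 beside -0.19. The sign was that of the member probe for 27 second probes with the ERRγ siRNA and for 23 with the control siRNA, and the changes correlated across probes at r = 0.655 and 0.433 in the same order. With the control siRNA the excess of falls over rises was thus seen in the member probes of these genes and not in their second probes.

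**Figure D5:**
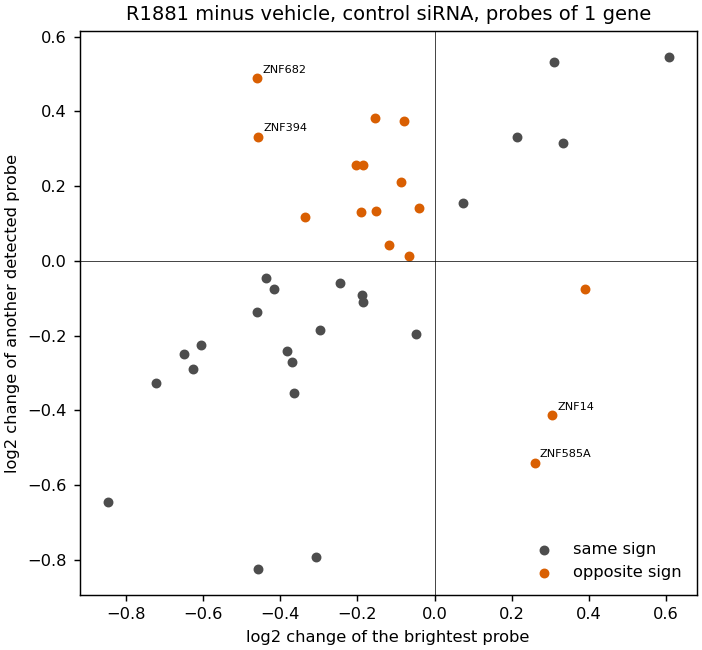
Log2 change with R1881 against vehicle, control siRNA, of the member probe (horizontal axis) and of another detected probe of the same gene (vertical axis), 1 point for each of 39 second probes. Grey points have the same sign on both axes (23), orange points the opposite sign (16).

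Where both probes of a gene were called with the control siRNA they went the same way for ZNF16, ZNF226, ZNF274, ZNF3, ZNF451 and ZNF627, and opposite ways for ZNF14, ZNF394, ZNF585A and ZNF682. The changes that follow are also those with the control siRNA. ZNF627 fell by 0.85 on its member probe and by 0.64 on the other, and ZNF226 rose by 0.61 and 0.55. ZNF14 rose by 0.31 on its member probe and fell by 0.41 on the other, and ZNF585A rose by 0.26 and fell by 0.54. ZNF394 fell by 0.46 and rose by 0.33, and ZNF682 fell by 0.46 and rose by 0.49. The direction of those 4 genes with the control siRNA is therefore not settled by these arrays. With the ERRγ siRNA the member probe and the other had the same sign for ZNF682 (0.34 and 0.32) and ZNF394 (0.05 and 0.25). Their signs were opposite there for ZNF14 (0.74 and -0.06) and ZNF585A (0.42 and -0.34). Probe sequences were not used here, so whether a probe reads a related ZNF transcript was not tested.

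The split between directions was also looked at by brightness. With the ERRγ siRNA 30.2% of the 86 members under a raw signal of 150 were lower, 51.2% of the 123 members from 150 to 300 and 31.9% of the 47 members over 300. The other genes detected on all 12 arrays had 18.3%, 27.8% and 26.7% in the same bins. With the control siRNA the members had 32.6%, 47.2% and 48.9%, beside 20.5%, 30.2% and 28.4% of the other genes. The shares called higher with the ERRγ siRNA were 3.49%, 8.13% and 10.6% of members, beside 16.1%, 23.5% and 24% of the other genes. Those called higher with the control siRNA were 9.3%, 6.5% and 12.8% of members, beside 17.2%, 25% and 25.6% of the other genes.

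By position, 101 members had a promoter entry on chromosome 19, where most clusters of KRAB genes lie. Of these, 42 were lower and 6 higher with the ERRγ siRNA, and 46 were lower and 8 higher with the control siRNA. Of the 116 members with an entry on another chromosome, 44 were lower and 12 higher with the ERRγ siRNA, and 43 were lower and 14 higher with the control siRNA. Of 456 other genes of chromosome 19 detected on all 12 arrays, 88 were lower and 117 higher with the ERRγ siRNA, and 122 were lower and 97 higher with the control siRNA. A further 39 members had no entry, of which 18 were lower with the ERRγ siRNA and 20 with the control siRNA, and 0 were higher with either.

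Some members lie next to each other in the RefSeq gene order, and differences between such neighbours were not tested. Of 64 such pairs, 44 of them on chromosome 19, 14 were lower in both genes with the control siRNA, 1 was higher in both, 35 had 1 gene called, 12 had none and 2 had 1 gene lower and 1 higher. The pair higher in both was ZNF239 and ZNF485. The pairs of opposite calls were ZNF37A (0.45) with ZNF33B (-0.59), and ZNF350 (0.36), a partner of BRCA1, with ZNF615 (-0.47). On chromosome 12 ZNF84, with its fall of 1.37, lies between ZNF26 at -0.16 ± 0.13 and ZNF140 at -0.04 ± 0.14, neither called. The changes of neighbours correlated at 0.271 with the ERRγ siRNA and at 0.170 with the control siRNA, over 64 pairs that share arrays and in part genes. Neighbouring pairs of all tested genes were not counted. The pair counts and correlations therefore show nothing particular to neighbouring members.

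The partners of KRAB proteins were looked at beside them. Of 17 tested genes of the KRAB corepressor machinery, 6 were lower and 4 higher with the ERRγ siRNA, and 3 were lower and 3 higher with the control siRNA. With the ERRγ siRNA that is 35.3% lower and 23.5% higher, where 20.3% and 16.7% of all tested genes were called. With the control siRNA it is 17.6% in each direction, near the 22.2% lower and 17.8% higher of all tested genes. TRIM28, the corepressor itself, fell by 0.34 (adjusted p = 0.0157) with the ERRγ siRNA and by 0.39 (adjusted p = 0.00650) with the control siRNA. SETDB1, the methyltransferase it recruits, fell by 0.63 and 0.68, and CHD4, the NuRD remodeller, by 0.58 and 0.68. UHRF1, which couples DNA methylation to replication, rose by 0.67 and 0.88, PPHLN1, a subunit of the HUSH silencing complex, by 0.32 and 0.52, and CBX3, a heterochromatin protein, by 0.36 and 0.33. Of the 5 genes of the G9a and GLP complex, EHMT2 (G9a) fell by 0.72 with the control siRNA and was not called with the ERRγ siRNA, while ZNF644, itself a member, fell by 0.39 with the ERRγ siRNA. The 4 genes of the ZMYND8 complex were not called.

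Zinc finger genes of 8 other families (ZFP, ZBTB, ZSCAN, ZKSCAN, KLF, SP, EGR and IKZF) are given beside the members. They were grouped by symbol, that of the arrays or the current one, and not by type of finger. Of 53 such genes detected on all 12 arrays, 25 were lower and 6 higher with the ERRγ siRNA, and 26 were lower and 5 higher with the control siRNA, with median log2 changes of -0.27 and -0.28. They are shown beside the ZNF members in the plot of shares called. Over all 87 tested genes of these families 31 were lower and 8 higher with the ERRγ siRNA, and 32 were lower and 8 higher with the control siRNA. Choosing by symbol alone would add an antisense RNA (ZBTB11-AS1), an opposite-strand gene (ZBTB8OS), a pseudogene (ZSCAN12P1) and a second symbol of ZBTB44, which gives 91 genes with 31 lower and 10 higher with the ERRγ siRNA. The genes with a ZFP symbol had 9 lower and 1 higher of 17 with each siRNA, whereas the KLF genes had 3 lower and 3 higher of 10 with each. The ZFP group is not a family apart. ZFP106 and ZFP112 are today ZNF106 and ZNF112, and ZFP161 is today ZBTB14 and is listed under ZBTB too. All of these were called lower with each siRNA.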

How the data were processed

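For each of 47323 probes the deposited data hold an intensity per array on a linear scale, per the file headers. Beside it the authors deposited a detection p-value. Their deposited normalized table holds log2 values, judged from the values. How it was normalized, and on which platform the arrays were made, is not given in the sources used here. All of the 92 control probes were left out, background was removed by limma's nec, guided by the detection p-values (offset 16), and log2 values were taken after quantile normalization (R 4.3.3 with limma 3.58.1 and data.table at version 1.17.8). Probes with a detection p-value under 0.05 on at least 3 of 12 arrays were kept (21959 probes, 17259 genes by the table's symbol, brightest probe each). One mean per group was fitted to all 12 arrays with limma's lmFit and eBayes, tests two-sided, Benjamini-Hochberg over all genes, called at an adjusted p under 0.05. The fit was tested on simulated data. The number of arrays limits the precision.

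Genes named are the largest called changes without overlap between groups, the brightest and least changed members, those with the lowest p where fewer than 3 were called, and a list of well-studied members. Members and lists were chosen with earlier results of these data known. Members were matched to RefSeq (GRCh38.p14) by accession (243) or symbol (9), and 4 had no match. Today 9 members have a symbol that does not start with ZNF. Same-numbered replicates did not deviate together (18 correlations from -0.259 to 0.127), so the numbers were not used as pairs.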

Additional observations from a re-analysis of the deposited data

How the results depend on the processing

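Members lower with R1881 outnumbered those higher with each siRNA under every alternative run. Without background correction the members' median log2 change was -0.1011 with the ERRγ siRNA and -0.1214 with the control siRNA, and the ERRγ siRNA in vehicle gave 10 lower and 1 higher. With an offset of 50 the medians were -0.1347 and -0.1618, the vehicle comparison gave 9 lower and 1 higher, and the interaction 2 higher. With median scaling the control siRNA gave 14 higher with a median of -0.2651, the medians of the siRNA comparison were 0.06033 in R1881 and -0.01374 in vehicle (1 lower), and that of the interaction was 0.06277. The authors' normalized table gave medians of -0.05718 and -0.06829, and 3 lower in vehicle. The mean of a gene's probes gave -0.1755 and -0.1915. The strict filter gave 6 lower and 1 higher in vehicle, array weights 5 and 1, and the arrays of the compared groups alone 1 lower. Asking for 1.5-fold left 35 lower and 6 higher with the ERRγ siRNA, and 41 and 5 with the control siRNA. The cause of these moves was not tested. For the calls in vehicle and in the interaction, the share of all tested genes was not counted under these alternatives.

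Leaving out each array in turn, the ERRγ siRNA gave 87 to 105 lower and 15 to 21 higher, median -0.2104 to -0.1898, and the control siRNA 99 to 109 and 16 to 22, median -0.2437 to -0.2095. The siRNA comparison in vehicle gave 0 to 4 lower and 0 to 1 higher, median 0.004244 to 0.0211, and in R1881 0 of either, median 0.01165 to 0.03532. The interaction gave 0 lower and 0 to 2 higher, median -0.02184 to 0.008433. With the replicate number as a block, which the labels do not tie to a shared source, R1881 gave 97 lower and 19 higher with the ERRγ siRNA, and 106 and 21 with the control siRNA.

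Averaging probes turned the sign with the control siRNA for ZNF14 (-0.0533), ZNF585A (-0.14), ZNF652 (0.0065) and ZNF682 (0.0776). Current symbols gave 248 members, and detection at 0.05 gave 287. A planned split by KRAB box was not run, since protein sequences were not used here. Signals near background limit the dimmest members, and 3 arrays a group limit small changes.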

Other observations

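Among the 129 tested ZNF genes outside the detection rule, 15 were lower and 5 higher with R1881 with the ERRγ siRNA, and 15 were lower and 6 higher with the control siRNA. With the ERRγ siRNA these shares were 11.6% lower and 3.88% higher, where 20.3% and 16.7% of all tested genes were called. With the control siRNA they were 11.6% and 4.65%, where 22.2% and 17.8% of all tested genes were. Of these genes 2 had a probe detected on all 6 arrays of one treatment and on none of the other. These probes were picked by that difference, so no p-value is given for them. The ZNF812 probe was detected on 6 of 6 R1881 arrays, at raw signals of 397 to 514, and on 0 of 6 vehicle arrays, at 90.4 to 98.7. It was at least 15.7-fold higher with R1881, a bound set by the lowest detected signal. A probe of ZNF629 was detected on 0 of 6 R1881 arrays, at raw signals of 94.9 to 102, and on 6 of 6 vehicle arrays, at 99.99 to 110. By the same bound this probe was 1.15-fold lower with R1881. Its raw signals in the treatments overlapped, so a fall of at least that size is not shown. The brighter probe of ZNF629, detected at the looser limit of 0.05 on all 12 arrays, fell by 1.52 (log2) with the ERRγ siRNA and by 1.64 with the control siRNA, past the -1.49 and -1.48 of the members with the largest falls.

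Single genes of other zinc finger families also changed with R1881. ZBTB43 fell by 2.34 (log2) with the ERRγ siRNA and fell by 2.56 with the control siRNA, and ZBTB34 fell by 1.14 and fell by 1.29 in the same order. ZBTB16 (PLZF), a transcriptional repressor, rose by 1.38 and 1.54, and KLF6, a zinc finger regulator of growth, by 1.60 and 1.62. KLF4, one of the reprogramming factors, rose by 1.37 and 1.39.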
